A study of Mus musculus with 12 samples.

Results

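Fos, Fosb, Jun, Junb, Egr1, Atf3, Ier2, Nr4a1, Klf4 and Dusp1, 10 genes of the immediate-early response, were measured by RNA sequencing in 12 libraries of mouse kidney. They were taken by gene symbol from a table of 46403 genes, and all 10 passed the filter on low counts that left 23742 genes for testing. The series asks, by its title, how Grhl2, a transcription factor gene of epithelial cells, bears on the growth of kidney cysts. Polyadenylated RNA was taken from the whole right kidney of untreated mice of unstated age. Wildtype kidneys (n = 5) came from mice that the labels define as R26StopFLMYC; Grhl2 flox/flox. Both of their Grhl2 copies were floxed, and they carried a MYC transgene at the Rosa26 locus behind a stop cassette that Cre removes. The group called Grhl2KO_Myc (n = 4) holds the kidneys labelled as a Grhl2 knockout with Myc overexpression. They were bred from a parent with HoxB7-Cre and Grhl2flox/+ and a parent with R26StopFLMYC and Grhl2flox/flox. HoxB7-Cre acts in the ureteric bud and so in the collecting ducts, and most cell types of the kidney lie outside its reach. Kidneys labelled Myc overexpression (n = 3) form the group Myc. Their library identifiers hold the letters HET, and the sources used here give neither their cross nor their Grhl2 genotype. Libraries are numbered by the replicate number in their titles. Nothing in the labels states that each library is a mouse of its own, so p-values measure only the spread between libraries, which may be technical.

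Immediate-early genes are switched on within minutes of a growth factor, hormone or stress signal, and cells need no new protein to do so. The signal reaches their promoters through the MAP kinase and cyclic AMP pathways, which act on factors that are already bound there, such as SRF with its ETS partners and CREB at the cyclic AMP response element. FOS and JUN proteins pair to form the transcription factor AP-1, EGR1, KLF4, NR4A1 and ATF3 are further transcription factors, and DUSP1 is a phosphatase that switches the MAP kinases off again. Their transcripts are short-lived, and in the kidney they are known for a fast rise after ischaemia or injury of the tubules.

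The promoters of some members are shown so that they can be compared base by base. A link between these sequences and the members' levels or correlations was not tested. Of the 10 genes 8 had an entry in the RefSeq promoter table (build GRCm38.p6), all except Egr1 and Ier2. In these 8, the 250 bases before the transcription start were searched on both strands for a set of short motifs. The core of the cyclic AMP response element, TGACG, was present in 7 of 8, against 17.8% of 32851 promoters of that length. The lines that follow give the 150 bases before the start, 5′ to 3′ on the gene's own strand, for the 6 genes with the core in that stretch. Capitals mark TGACG, or CGTCA where the core lies on the other strand, and in Dusp1 the full element, TGACGTCA.
Fos (chr12:85473740-85473889, plus strand): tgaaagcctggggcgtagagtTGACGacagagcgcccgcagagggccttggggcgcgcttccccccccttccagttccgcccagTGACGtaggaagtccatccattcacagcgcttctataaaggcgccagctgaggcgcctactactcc
Fosb (chr7:19310046-19310195, minus strand): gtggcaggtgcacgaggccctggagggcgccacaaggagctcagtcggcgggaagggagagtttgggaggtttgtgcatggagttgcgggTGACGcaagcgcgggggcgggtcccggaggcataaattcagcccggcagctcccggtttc
Junb (chr8:84978749-84978898, minus strand): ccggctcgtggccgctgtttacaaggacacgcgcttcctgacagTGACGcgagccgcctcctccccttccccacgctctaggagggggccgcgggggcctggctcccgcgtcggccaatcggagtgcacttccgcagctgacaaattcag
Atf3 (chr1:191183334-191183483, minus strand): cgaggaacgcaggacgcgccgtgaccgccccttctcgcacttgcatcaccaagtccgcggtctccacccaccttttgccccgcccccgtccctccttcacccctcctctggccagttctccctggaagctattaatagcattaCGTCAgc
Nr4a1 (chr15:101266696-101266845, plus strand): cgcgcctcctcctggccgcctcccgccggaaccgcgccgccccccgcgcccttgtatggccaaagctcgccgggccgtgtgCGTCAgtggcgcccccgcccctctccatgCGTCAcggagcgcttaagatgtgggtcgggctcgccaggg
Dusp1 (chr17:26508473-26508622, minus strand): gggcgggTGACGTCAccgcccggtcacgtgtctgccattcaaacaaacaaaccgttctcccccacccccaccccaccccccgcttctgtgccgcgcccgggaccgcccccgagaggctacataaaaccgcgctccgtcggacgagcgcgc

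The core began 129 and 66 bases before the start in Fos, 60 in Fosb, 106 in Junb, 7 in Atf3 and 69 and 40 in Nr4a1, with further copies in Nr4a1 at 233 and 213. In Dusp1 it began at 191, outside the printed stretch, and at 143 and 140, where the copies on both strands overlap within the full element. Klf4 had a single core at 232, and Jun had none in 250 bases. The full element was found in 1 of 8 genes (1.55% of all promoters). The GC box, GGGCGG, was found in 7 of 8 (32.7%), all except Junb. The EGR motif, GCGNGGGCG, which can overlap a GC box, was found in Fosb, Nr4a1 and Klf4 (4.70% of all promoters). TATAAA was found in Fos (12.4%) and the E-box CACGTG in Klf4 and Dusp1 (6.02%). None of the 8 held TGANTCA, the AP-1 motif (6.75%), TTCNNNGAA, the STAT motif (7.02%), or a CArG box, the motif of SRF (1.47%), in this window. These matches are letters in a window and no measurement of binding. All distances count from the single start that the promoter table gives for a gene. The bases just after that start were found in an annotated transcript of the gene for 6 of 8. In Fosb, Atf3, Nr4a1 and Dusp1 the start lies inside the gene span given below, and in Junb and Klf4 it lies outside. The distances hold for that start only.

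Total counts assigned to genes were 52973520 to 98713157 in wildtype, 70608817 to 101043826 in Myc and 75187006 to 108164810 in Grhl2KO_Myc libraries. Levels are in CPM, counts set against a library total scaled with TMM factors. Grhl2 itself was at 23.9 to 29.25 CPM in wildtype, 28.2 to 33.0 in Myc and 18.5 to 24.3 in Grhl2KO_Myc. It was lower in Grhl2KO_Myc than in Myc (edgeR adjusted p = 0.044). The ranges of Grhl2KO_Myc and wildtype overlapped, with 24.3 CPM in Grhl2KO_Myc 3 and 23.9 in wildtype 4. The mouse Myc gene, as counted, was at 19.8 to 34.4, 19.1 to 27.6 and 27.0 to 32.2 CPM. In 3 libraries the proximal tubule markers, 25 genes of the most abundant tubule segment, stood apart. Their mean log2 level relative to all libraries was lowest in wildtype 4 (-1.34), Grhl2KO_Myc 3 (-1.07) and Grhl2KO_Myc 4 (-0.98), and lay at -0.060 to 0.76 elsewhere. Genes at which ribosomal RNA is often counted took 5.55% of the counts in Myc 1 and at most 0.581% elsewhere. In libraries of a whole organ, fewer cells of a type and less RNA per cell cannot be told apart.

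All 10 genes were detected in every library, at levels that spanned a wide range. Relative to exon length (RPKM, mean ± SD over the 12 libraries), Ier2, a small nuclear protein gene of the early response, was highest at 25.2 ± 3.67, and Jun followed at 20.4 ± 2.45. Egr1 was at 12.6 ± 2.83, Junb at 9.59 ± 3.38, Dusp1 at 8.94 ± 1.95, Klf4 at 5.82 ± 1.13 and Nr4a1 at 5.12 ± 1.08 RPKM. Fos, at 1.74 RPKM (1.10 to 3.95), and Atf3, at 1.47 ± 0.619, were far lower, and Fosb was lowest at 0.157 ± 0.0763. Along this order only the steps from Nr4a1 to Fos and from Atf3 to Fosb separated ranges that did not overlap over the libraries. Ier2 lay above Jun in 11 of 12 libraries, Junb above Dusp1 in 8, Klf4 above Nr4a1 in 9 and Fos above Atf3 in 9. Fosb rested on 15 to 84 counts per library, so its values are the least precise. Among the members, Jun and Junb therefore stood above Fos and Fosb in every library. The highest Fos level (3.95 RPKM) was below the lowest of Junb (6.99) and of Jun (15.9). This does not extend to the FOS relative Fosl2, which was at 9.20 RPKM in wildtype 4 with Junb at 8.82.

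No member passed the test between any pair of genotypes (edgeR quasi-likelihood test, Benjamini-Hochberg adjusted over 23742 genes, threshold 0.05), and for every member the libraries of the groups overlapped. Libraries did not overlap for 9.47% of all genes tested between Grhl2KO_Myc and wildtype, 16.8% between Grhl2KO_Myc and Myc and 3.57% between Myc and wildtype. Between Grhl2KO_Myc and wildtype 0 of 10 were called, where 6.67% of all genes tested were. Of the 10, 8 had a log2 fold change above 0, with a median of 0.16 (all genes -0.0074), and 1, Fos, had an unadjusted p under 0.05, as had 22% of all genes. Between Grhl2KO_Myc and Myc 0 of 10 were called (0.842% of all genes). There 9 were above 0 with a median of 0.26 (all genes 0.0023), and Fos, Jun and Atf3 had an unadjusted p under 0.05 (13.3% of all genes). Between Myc and wildtype 0 of 10 were called (0.00421% of all genes). There 9 were below 0 with a median of -0.19 (all genes 0.00014), and 0 had an unadjusted p under 0.05 (4.62% of all genes). The comparisons share libraries, so their values stand side by side and do not support each other. Limma-voom also called 0 members in each comparison, and DESeq2 called Fos between Grhl2KO_Myc and wildtype (adjusted p = 0.037, with 11.6% of all genes called) and 0 members between Grhl2KO_Myc and Myc (3.35% of all genes) and between Myc and wildtype (0.189%).

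**Figure D1:**
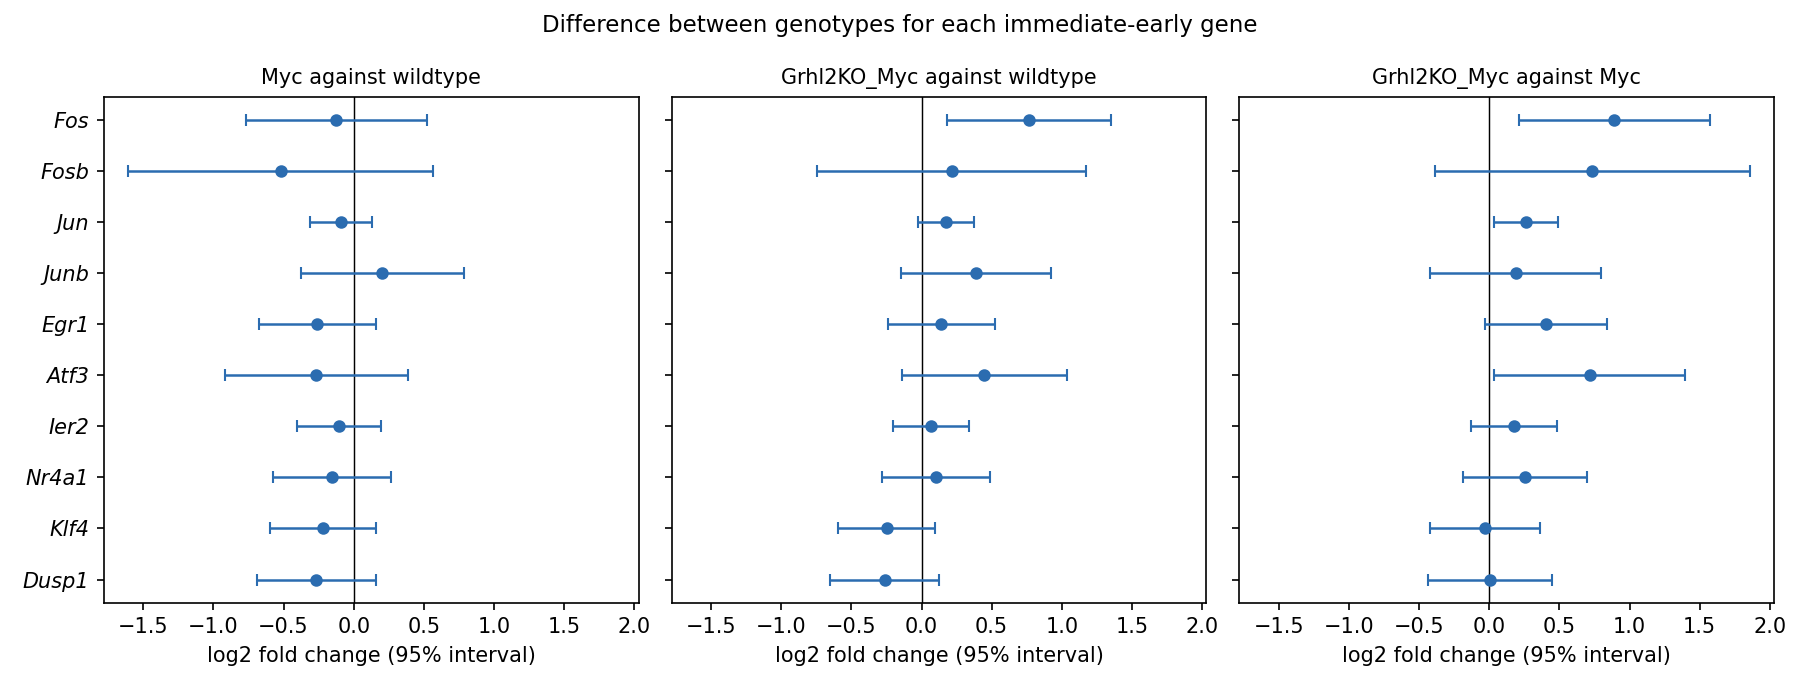
Log2 fold change of each gene (horizontal axis, points, with 95% confidence intervals as bars) in the comparisons of genotypes, from the edgeR fit of all 12 libraries. The interval of Fos lies above 0 in both comparisons that involve Grhl2KO_Myc (0.18 to 1.35 against wildtype and 0.21 to 1.57 against Myc), and no gene passed after adjustment.

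Fos (ENSMUSG00000021250.13, chromosome 12, 85473890 to 85477273, plus strand, mm10), the AP-1 subunit gene that gives the family its name, had the largest log2 fold change of the members in both comparisons that involve Grhl2KO_Myc. It was at 3.70, 3.34, 2.755, 4.04 and 3.01 CPM in wildtype 1 to 5, at 3.67, 2.60 and 3.00 CPM in Myc 1 to 3, and at 6.62, 9.30, 4.02 and 3.07 CPM in Grhl2KO_Myc 1 to 4. The libraries Grhl2KO_Myc 1 and 2 were above all others, while Grhl2KO_Myc 3 and 4, which are low in proximal tubule transcripts, lay within the range of wildtype. The mean was 5.75 ± 2.80 CPM in Grhl2KO_Myc, 3.37 ± 0.517 in wildtype and 3.09 ± 0.545 in Myc (mean ± SD, n = 4, 5 and 3). Against wildtype the log2 fold change was 0.77 (SE 0.27, edgeR adjusted p = 0.11), and against Myc 0.89 (SE 0.31, adjusted p = 0.24). Myc differed from wildtype by -0.12 (SE 0.30, adjusted p = 0.999). Without Grhl2KO_Myc 4 Fos was called against wildtype (0.98, adjusted p = 0.043, with 3.18% of all genes called), and without Grhl2KO_Myc 2 the value was 0.44 (adjusted p = 0.30). Without wildtype 4 and Grhl2KO_Myc 3 and 4, the 3 libraries low in proximal tubule transcripts, it was 1.31 against wildtype (SE 0.18, adjusted p = 0.0043, with 9.48% of all genes called). Against Myc it was then 1.36 (SE 0.19, adjusted p = 0.011, with 1.33% of all genes called), and Grhl2KO_Myc was left with 2 libraries. Between Myc and wildtype 0 members were called without those libraries (0.00417% of all genes). With the score of proximal tubule markers as a covariate instead, the value against wildtype was 0.79 (adjusted p = 0.089).

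Its relative Fosb (ENSMUSG00000003545.3, chromosome 7, 19302696 to 19310051, minus strand) encodes a further FOS subunit of AP-1. It was at 0.360, 0.654, 0.418, 1.07 and 0.492 CPM in wildtype, at 0.747, 0.373 and 0.149 CPM in Myc, and at 1.08, 0.773, 0.544 and 0.420 CPM in Grhl2KO_Myc. Grhl2KO_Myc 1 and wildtype 4 were highest and close to each other, and Myc 3 was lowest. Grhl2KO_Myc differed on the log2 scale from wildtype by 0.21 (SE 0.44, adjusted p = 0.82) and from Myc by 0.74 (SE 0.52, adjusted p = 0.57). The confidence interval against wildtype ran from -0.75 to 1.18, so a change of more than 2-fold upward was within it.

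Jun (ENSMUSG00000052684.4, chromosome 4, 95049034 to 95052222, minus strand), whose product binds DNA alone or with FOS, had the smallest pooled spread within groups of the members. It was at 69.5, 68.1, 56.7, 60.5 and 62.3 CPM in wildtype, at 68.8, 50.6 and 59.2 CPM in Myc, and at 74.9, 78.6, 64.7 and 67.8 CPM in Grhl2KO_Myc. As for Fos, Grhl2KO_Myc 1 and 2 were the highest libraries, by a smaller margin. Grhl2KO_Myc was above wildtype by 0.17 (SE 0.092, adjusted p = 0.30) and above Myc by 0.26 (SE 0.11, adjusted p = 0.30) on the log2 scale. The antisense gene Junos shares 232 exon bases with Jun, and the kit does not keep strand, so reads there cannot be told apart. Junos was at 7.62 ± 0.933 CPM in wildtype and 7.80 ± 0.371 in Grhl2KO_Myc.

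Junb (ENSMUSG00000052837.6, chromosome 8, 84974484 to 84978718, minus strand), which encodes a JUN protein that dampens growth in many settings, was set apart by 1 library. It was at 14.8, 16.8, 15.9, 16.2 and 13.7 CPM in wildtype, at 16.5, 19.0 and 17.9 CPM in Myc, and at 16.7, 36.6, 14.8 and 12.9 CPM in Grhl2KO_Myc. Grhl2KO_Myc 2 was far above all other libraries, and Grhl2KO_Myc 4 was the lowest. Grhl2KO_Myc differed from wildtype by 0.39 (SE 0.25, adjusted p = 0.39) and from Myc by 0.19 (SE 0.28, adjusted p = 0.81) on the log2 scale. Without Grhl2KO_Myc 2 these values were -0.063 and -0.27. Prdx2, on the other strand, shares 173 exon bases with Junb and was at 271 CPM in Grhl2KO_Myc 2, within the 250 to 276 CPM of all libraries.

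Atf3 (ENSMUSG00000026628.13, chromosome 1, 191170296 to 191218039, minus strand), a stress-induced factor of the ATF/CREB family that can pair with JUN, showed the same library. It was at 2.30, 3.35, 2.45, 3.96 and 2.59 CPM in wildtype, at 2.89, 2.11 and 2.33 CPM in Myc, and at 3.02, 7.08, 3.16 and 2.82 CPM in Grhl2KO_Myc. Apart from Grhl2KO_Myc 2, the Grhl2KO_Myc libraries lay within the wildtype range. The log2 fold change was 0.45 over wildtype (SE 0.27, adjusted p = 0.36) and 0.71 over Myc (SE 0.31, adjusted p = 0.35). Without Grhl2KO_Myc 2 they were 0.030 and 0.30.

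Egr1 (ENSMUSG00000038418.7), a zinc-finger factor gene driven by SRF and ETS factors, followed another order. It was at 65.5, 48.2, 50.6, 74.4 and 45.2 CPM in wildtype, at 52.3, 50.4 and 39.4 CPM in Myc, and at 49.7, 62.7, 55.1 and 83.0 CPM in Grhl2KO_Myc. Its highest libraries were Grhl2KO_Myc 4 and wildtype 4, both low in proximal tubule transcripts, and the part of that in the levels was not tested. The log2 fold change of Grhl2KO_Myc was 0.14 over wildtype (SE 0.17, adjusted p = 0.68) and 0.40 over Myc (SE 0.20, adjusted p = 0.42). With the score of proximal tubule markers as a covariate the value over wildtype was -0.023.

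Ier2 (ENSMUSG00000053560.4, chromosome 8, 84661331 to 84662852, minus strand) was at 39.3, 34.9, 33.3, 52.0 and 32.1 CPM in wildtype, at 37.8, 34.0 and 35.1 CPM in Myc, and at 35.7, 42.9, 39.4 and 43.0 CPM in Grhl2KO_Myc. Wildtype 4 was highest, and the other wildtype libraries overlapped both other groups. On the log2 scale Grhl2KO_Myc lay 0.071 above wildtype (SE 0.12, adjusted p = 0.79) and 0.18 above Myc (SE 0.14, adjusted p = 0.63).

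Nr4a1 (ENSMUSG00000023034.7, chromosome 15, 101254269 to 101274795, plus strand), an orphan nuclear receptor gene, was at 12.4, 10.4, 9.98, 18.9 and 11.7 CPM in wildtype, at 11.3, 10.5 and 12.3 CPM in Myc, and at 15.9, 14.6, 13.4 and 10.5 CPM in Grhl2KO_Myc. Wildtype 4 was again highest, and Grhl2KO_Myc 1, 2 and 3 came next. The log2 fold change of Grhl2KO_Myc was 0.10 over wildtype (SE 0.18, adjusted p = 0.78) and 0.26 over Myc (SE 0.20, adjusted p = 0.62). Without the 3 libraries low in proximal tubule transcripts Nr4a1 was called against wildtype (0.45, SE 0.11, adjusted p = 0.031, with 9.48% of all genes called). That fit left 2 libraries in Grhl2KO_Myc. Without wildtype 4 alone the value of Nr4a1 was 0.29 (adjusted p = 0.12).

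Klf4 (ENSMUSG00000003032.8, chromosome 4, 55527143 to 55532466, minus strand), a factor of epithelial differentiation that also acts in endothelium, was at 16.9, 17.4, 23.1, 24.7 and 15.2 CPM in wildtype. It was at 17.4, 18.04 and 14.7 CPM in Myc, and at 20.3, 17.3, 13.8 and 14.2 CPM in Grhl2KO_Myc. Wildtype 3 and 4 were highest and Grhl2KO_Myc 3 and 4 lowest. The log2 fold change was -0.25 against wildtype (SE 0.16, adjusted p = 0.40) and -0.028 against Myc (SE 0.18, adjusted p = 0.96).

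Dusp1 (ENSMUSG00000024190.7, chromosome 17, 26505590 to 26562128, minus strand), the phosphatase gene, was at 28.9, 20.3, 31.4, 33.7 and 19.3 CPM in wildtype. It was at 26.6, 19.7 and 20.3 CPM in Myc, and at 22.6, 27.5, 20.5 and 18.6 CPM in Grhl2KO_Myc. Wildtype libraries were spread over nearly the whole range, with wildtype 3 and 4 highest as for Klf4. The log2 fold change was -0.26 against wildtype (SE 0.18, adjusted p = 0.42) and 0.0059 against Myc (SE 0.20, adjusted p = 0.99).

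**Figure D2:**
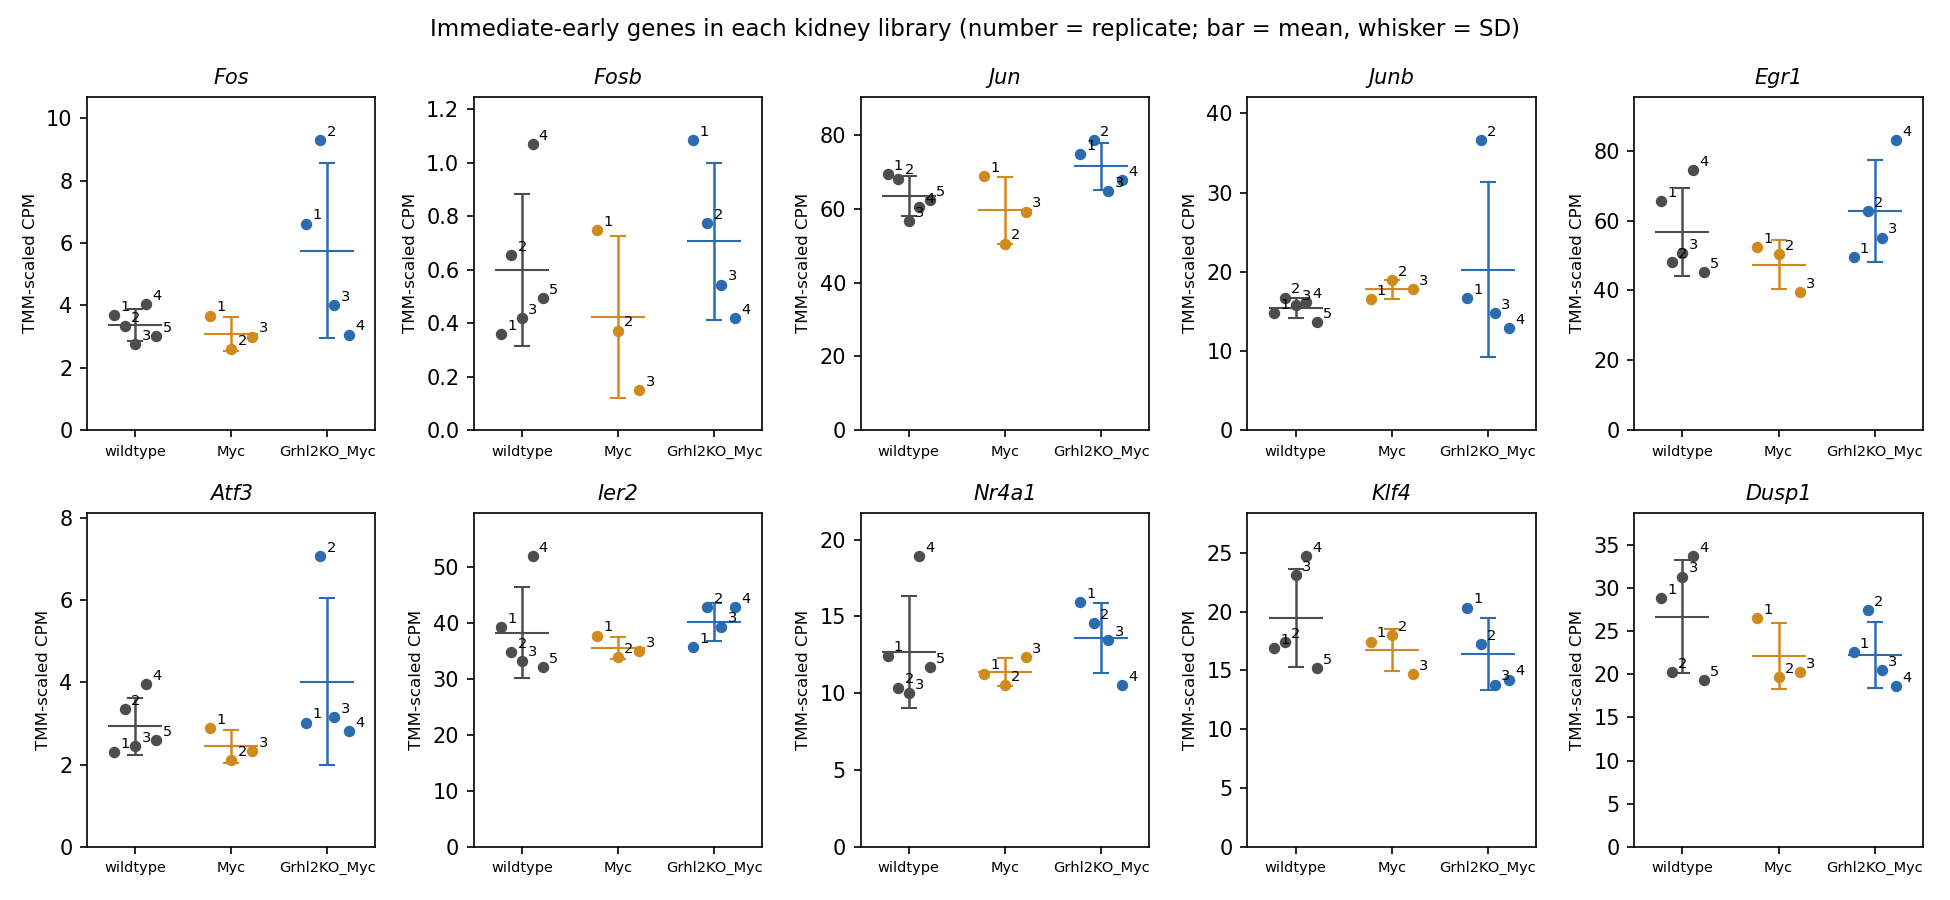
CPM (vertical axes, each starting at 0) of the 10 genes in wildtype, Myc and Grhl2KO_Myc libraries, with each library as a point numbered by replicate and the mean ± SD of the group beside it. Fos reached 6.62 and 9.30 CPM in Grhl2KO_Myc 1 and 2, Junb 36.6 CPM and Atf3 7.08 CPM in Grhl2KO_Myc 2, and Nr4a1 18.9 CPM in wildtype 4.

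Most members varied more within a genotype than the median gene tested did. The members' SD of log2 CPM within groups had a median of 0.30, against 0.18 over all genes tested. The median of the 14013 genes at 5 CPM or more was 0.11. Jun, at 0.15, lay below the median of all genes tested and above that of the genes at 5 CPM or more. Fosb had the largest value (0.72), which lay above that of 94.0% of all genes tested, followed by Fos (0.45), Atf3 (0.43) and Junb (0.40). Jun had the smallest pooled value (0.15, above 43.6% of genes) and Ier2 the next (0.20), although within each single group another member was below Jun. In Grhl2KO_Myc the SD was 0.71 for Fos, 0.67 for Junb and 0.62 for Atf3, where wildtype had 0.22, 0.12 and 0.33. Dusp1, Nr4a1, Klf4 and Ier2 had the larger SD in wildtype, at 0.37, 0.37, 0.31 and 0.28, against 0.24, 0.25, 0.26 and 0.13 in Grhl2KO_Myc. These differences in spread were not tested.

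**Figure D3:**
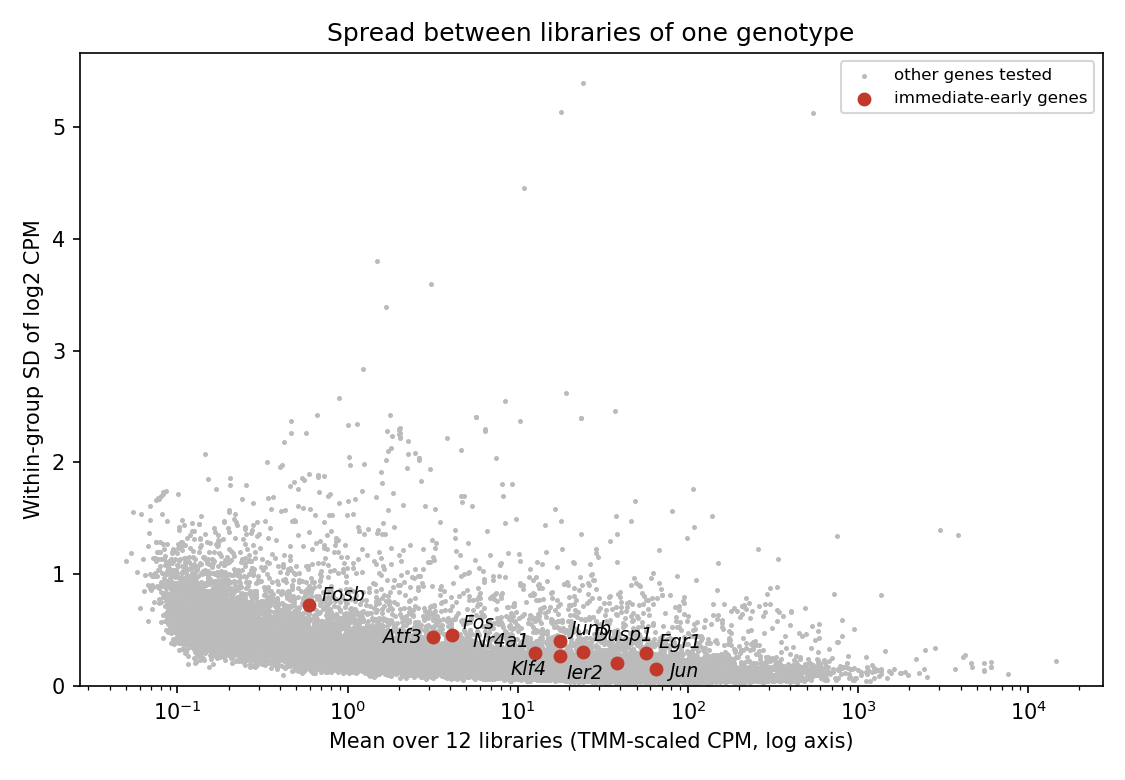
SD of log2 CPM within groups (vertical axis) against mean CPM over the 12 libraries (horizontal log axis) for all genes tested, with the 10 members named. The members lie between 0.15 (Jun) and 0.72 (Fosb), and the median of all genes tested is 0.18.

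The highest library of a group was often the same for several members. Wildtype 4 was above every other wildtype library for 8 of 10 members, all except Jun and Junb, where it was above every other for 32.1% of all genes tested. Its median fold over the mean of the other wildtype libraries was 1.39 for the members and 0.99 for all genes. The largest were Fosb at 2.22-fold, Nr4a1 at 1.70-fold, Ier2 at 1.49-fold, Atf3 at 1.48-fold and Egr1 at 1.42-fold. Grhl2KO_Myc 2 was above every other Grhl2KO_Myc library for 5 of 10 members (23.5% of all genes), Fos, Jun, Junb, Atf3 and Dusp1. Junb was 2.47-fold, Atf3 2.36-fold and Fos 2.04-fold above the mean of the other Grhl2KO_Myc libraries there, while Egr1 was at 1.00-fold and Ier2 at 1.09-fold. The library highest in Ier2 and Nr4a1 was thus a wildtype kidney, and the library highest in Fos, Junb and Atf3 was a Grhl2KO_Myc kidney. Wildtype 5 had 0 of 10 members above their mean over libraries and Myc 3 had 1, against 9 in Grhl2KO_Myc 2 and 8 in wildtype 4. The mean log2 level of the members relative to all libraries was 0.52 in Grhl2KO_Myc 2, 0.38 in wildtype 4 and 0.23 in Grhl2KO_Myc 1, and it was -0.35 in Myc 3 and -0.25 in Myc 2. The proximal tubule score was 0.06 in Grhl2KO_Myc 2 and -1.34 in wildtype 4, and its part in the members' levels was not tested.

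**Figure D4:**
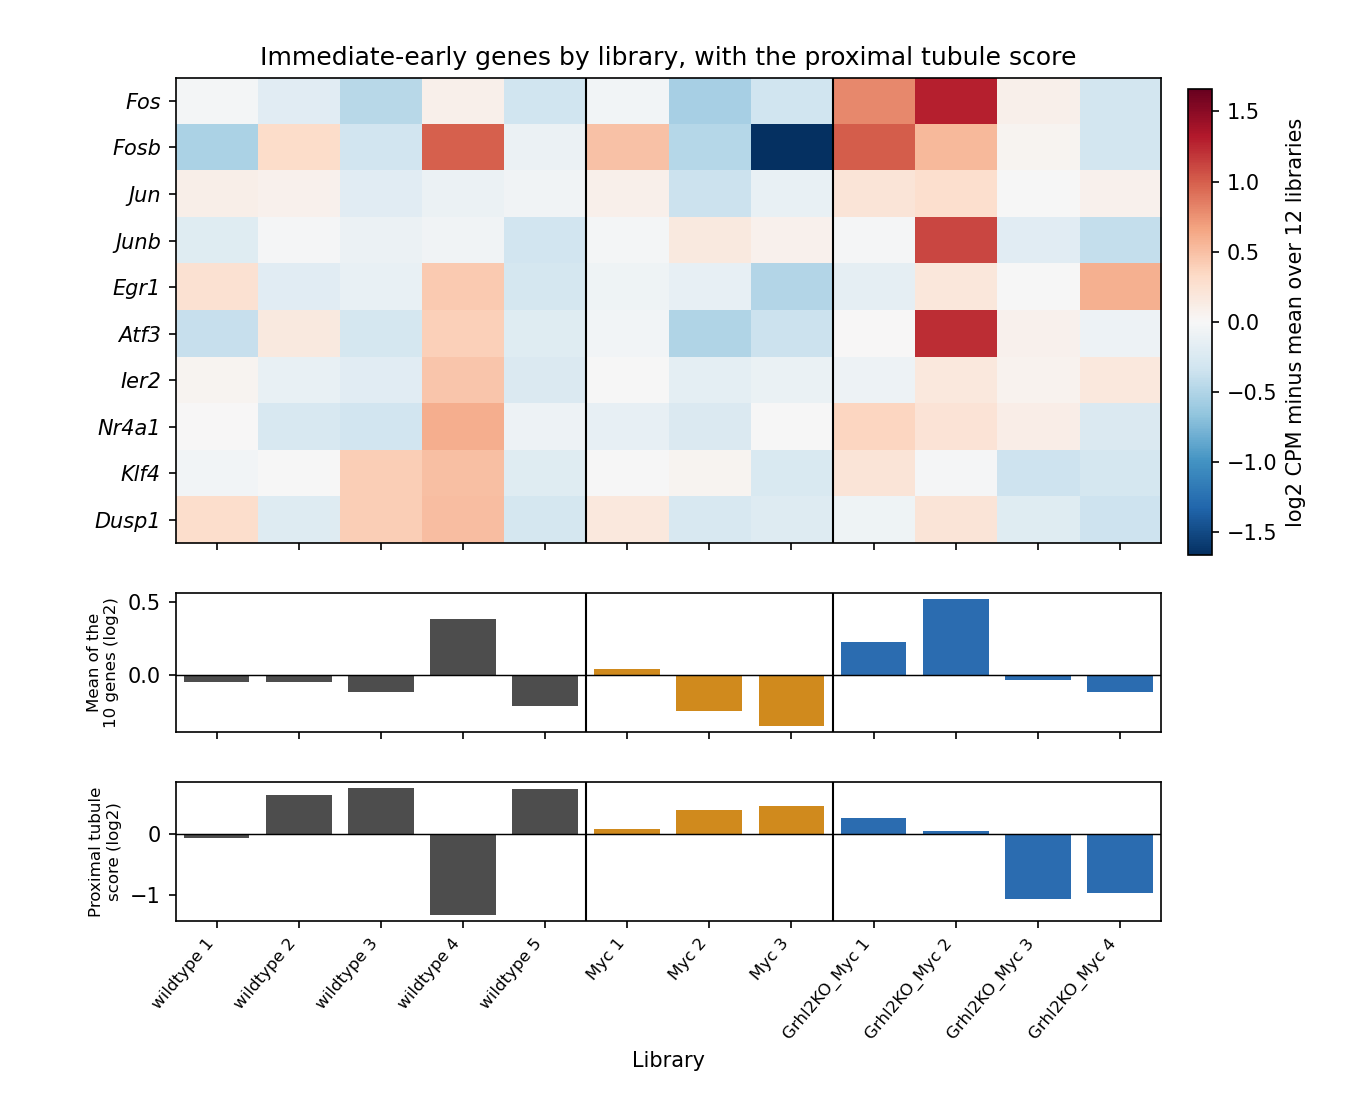
Log2 CPM of each gene relative to its mean over the 12 libraries (colour), with genes as rows and libraries as columns by genotype, above bars of the mean over the 10 genes and of the proximal tubule score, both in log2 relative to all libraries. Grhl2KO_Myc 2 is highest for Fos (1.29), Junb (1.11) and Atf3 (1.23), and wildtype 4 is highest for Nr4a1 (0.60), Dusp1 (0.51), Klf4 (0.50) and Ier2 (0.45).

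Across the 12 libraries, which share the scaling and the 3 genotypes, most pairs of members had a positive correlation of log2 CPM. This held for 43 of the 45 pairs, with a median r of 0.36 and a range of -0.16 to 0.82, where 49.8% of all pairs of genes tested were positive. With group means removed 41 were positive, with a median of 0.41, again beside 49.8% of all pairs. The closest pairs were Egr1 with Ier2 (r = 0.82), Fos with Atf3 (0.82), Fos with Jun (0.79), Klf4 with Dusp1 (0.75) and Junb with Atf3 (0.73, and 0.82 with group means removed). Fosb was closest to Atf3 (0.60) and Nr4a1 to Ier2 (0.66). The lowest values were those of Jun with Klf4 (-0.16) and Junb with Egr1 (-0.041), and other pairs lay between, such as Fos with Junb (0.69) and with Nr4a1 (0.65) and Ier2 with Dusp1 (0.47).

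Other genes were ranked by their likeness to the mean log2 level of the members over the 12 libraries, among 12400 genes with at least 5 CPM on average. The 10 closest were Lbp, Nrbp2, Adam23, Pdpn, Plgrkt, Tspyl2, Rassf1, Serping1, Rarres2 and Socs2, with r from 0.91 down to 0.87. Lbp, a plasma protein gene that binds bacterial lipopolysaccharide, averaged 33.1 CPM, and Socs2, an inhibitor gene of cytokine signalling, averaged 57.8 CPM. None of the 10 was called in any comparison. Between Grhl2KO_Myc and wildtype their log2 fold changes ran from -0.0055 (Plgrkt) to 0.12 (Adam23). These genes were picked for their likeness among many, so the size of r is a description.

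Of 48 further genes of the early response 47 were tested, and 2 of them rose in Grhl2KO_Myc over wildtype (4.06% of all genes) while 0 fell (2.61% of all genes). The count called was 1 to 4 over the alternatives run. The median log2 fold change over the 47 was -0.0015. Dusp2, which encodes a nuclear MAP kinase phosphatase related to DUSP1, was at 4.35, 4.82, 3.09, 4.82 and 4.32 CPM in wildtype and at 7.90, 7.10, 9.35 and 7.59 CPM in Grhl2KO_Myc. Every Grhl2KO_Myc library lay above every wildtype library, also the libraries low in proximal tubule transcripts. Dusp2 rose by 0.90 (SE 0.14, adjusted p = 0.0028), and lay 0.55 above Myc (SE 0.16, adjusted p = 0.15), where the groups did not overlap either. The call against wildtype held under every alternative run. Gadd45b, a stress and growth arrest gene, rose by 0.59 (SE 0.16, adjusted p = 0.044), from 5.65 ± 1.31 to 8.51 ± 0.918 CPM. That call was lost without wildtype 1, 2, 3 or 5 (adjusted p = 0.095, 0.10, 0.10 and 0.057) or without Grhl2KO_Myc 1, 2, 3 or 4 (0.092, 0.10, 0.077 and 0.078). It was also lost with no expression filter (0.051), with only the groups compared (0.070), with the replicate block (0.063) and with a sex term (0.084). Between Grhl2KO_Myc and Myc 0 of 47 were called, with 39 above 0 and a median of 0.13. Between Myc and wildtype 0 of 47 were called, with 10 above 0 and a median of -0.15. In those comparisons 7 and 4 of the 47 had an unadjusted p under 0.05 (13.3% and 4.62% of all genes). DESeq2 called 3 of them between Grhl2KO_Myc and Myc (3.35% of all genes).

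Apart from Dusp2, the relatives of the members named here did not pass. Jund, the JUN gene least dependent on signals, was at 181 ± 47.7 CPM in wildtype and 172 ± 10.4 in Grhl2KO_Myc, with 264 CPM in wildtype 4 and 144 to 173 CPM in wildtype 1, 2, 3 and 5. Fosl2, a FOS relative, was at 73.0 ± 9.41, 68.7 ± 1.63 and 81.6 ± 7.56 CPM in wildtype, Myc and Grhl2KO_Myc (adjusted p = 0.31 against both). Egr2, a relative of Egr1, was at 1.06 ± 0.210, 0.821 ± 0.142 and 1.69 ± 0.653 CPM, a log2 fold change of 0.67 over wildtype (SE 0.24, adjusted p = 0.12) and 1.04 over Myc (SE 0.29, adjusted p = 0.13). Every Grhl2KO_Myc library of Egr2 lay above every library of the other groups, and over all genes the libraries did not overlap for the 9.47% and 16.8% given above. Nr4a2 was at 5.76 ± 0.971, 6.38 ± 0.450 and 5.65 ± 0.674 CPM. Socs3, the inhibitor of cytokine signalling that STAT3 induces, was at 10.5 to 12.5 CPM in 3 Grhl2KO_Myc libraries and at 52.0 CPM in Grhl2KO_Myc 2, the library high in Junb and Atf3. That made it 4.57-fold above the others of its group, and the log2 fold change over wildtype was 1.07 (SE 0.42, adjusted p = 0.15). Egr2 and Socs3 were named after their values were seen.

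Genes for partners and for upstream signalling were counted in the same way. Of 11 genes for bZIP partners of AP-1, among them Batf3 and Nfe2l2, 0 were called in any comparison by edgeR, where 6.67%, 0.842% and 0.00421% of all genes were between Grhl2KO_Myc and wildtype, Grhl2KO_Myc and Myc, and Myc and wildtype. At an unadjusted p under 0.05 there were 3 (22% of all genes), 3 (13.3%) and 0 (4.62%) in that order. DESeq2 called 2 between Grhl2KO_Myc and wildtype (11.6% of all genes). Of 24 kinases and factors upstream of the early genes, such as Srf, Elk1 and Creb1, 1 fell in Grhl2KO_Myc against wildtype (2.61% of all genes) and 0 rose (4.06%). This was Rps6ka3, a kinase gene downstream of ERK, which was at 117 ± 3.49 CPM against 130 ± 2.87 CPM and differed by -0.15 on the log2 scale (SE 0.037, adjusted p = 0.032). The call was lost without any 1 of wildtype 1 to 3 or of the 4 Grhl2KO_Myc libraries (adjusted p from 0.052 to 0.077), with no expression filter (0.12), with only the groups compared (0.073), with the replicate block (0.079) and with a sex term (0.066). In the other comparisons 0 of 24 were called, with 2 at an unadjusted p under 0.05 between Grhl2KO_Myc and Myc and 0 between Myc and wildtype. The median of the 24 was -0.02, 0.02 and -0.02 for Grhl2KO_Myc against wildtype, Grhl2KO_Myc against Myc and Myc against wildtype.

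Heat-shock genes are another family of fast stress responders. Of 16 tested, 6 rose in Grhl2KO_Myc over wildtype (4.06% of all genes) and 0 fell (2.61%), with a median of 0.21. They were the mitochondrial chaperonin genes Hspd1 (0.46 on the log2 scale, from 318 ± 24.0 to 438 ± 28.2 CPM, SE 0.071, adjusted p = 0.0028) and Hspe1 (0.35, SE 0.063, adjusted p = 0.0075), the constitutive cytosolic chaperone genes Hspa8 (0.41, SE 0.079, adjusted p = 0.0099) and Hsp90ab1 (0.36, SE 0.087, adjusted p = 0.028), with Hsf1 (0.21, SE 0.051, adjusted p = 0.028) and Hsp90aa1 (0.22, SE 0.053, adjusted p = 0.031). The count was 3 without wildtype 1, wildtype 3 or Grhl2KO_Myc 3 and with only the groups compared, and 9 without wildtype 4. With a sex term it was 4, and Hsf1 and Hsp90aa1 were not called there. The calls of Hspd1, Hspe1 and Hspa8 held under every alternative run. That of Hsp90ab1 was lost without wildtype 1, 2, 3 or 5 or without Grhl2KO_Myc 3 or 4 (adjusted p from 0.060 to 0.091), and with only the groups compared (0.066). The classical stress-inducible copies Hspa1a and Hspa1b lay on the other side, at -0.41 and -0.40 (adjusted p = 0.088 and 0.095), and reads cannot be assigned surely between them since they are near-identical. Between Grhl2KO_Myc and Myc 0 of 16 were called (11 at an unadjusted p under 0.05, where 13.3% of all genes were), and between Myc and wildtype 0 (0 at that level). DESeq2 called 3 between Grhl2KO_Myc and Myc (3.35% of all genes).

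Markers of the cell types of the kidney were set beside the members, and the part of cell composition in the members' values was not tested. No marker of any list was at 0 CPM in all libraries. Summed over the 25 proximal tubule markers, levels were 1795 to 6655 CPM in wildtype, 4377 to 5604 in Myc and 2000 to 4844 in Grhl2KO_Myc, and 2 fell in Grhl2KO_Myc against wildtype, where 2.61% of all genes fell and 4.06% rose. The 10 thick limb and distal convoluted tubule markers summed to 1286 to 1837, 1479 to 1713 and 968 to 1332 CPM, with 0 called. By edgeR 9 of them were lower in Grhl2KO_Myc than in wildtype at an unadjusted p under 0.05 (22% of all genes, either direction). Against Myc 5 were lower at that level (13.3% of all genes). The median log2 fold change of the 10 was -0.48 against wildtype and -0.46 against Myc. The 10 podocyte markers summed to 1331 to 1413, 1111 to 1342 and 1067 to 1143 CPM, so Grhl2KO_Myc did not overlap with wildtype, and 3 fell. The 10 intercalated cell markers summed to 157 to 342, 354 to 413 and 204 to 281 CPM, so Myc lay above the other groups. Of these markers 1 was higher and 1 lower in Grhl2KO_Myc against wildtype, and 2 were lower against Myc (0.842% of all genes called). Their lowest score, -0.80, was in wildtype 4. The 10 principal cell markers, of the collecting duct, summed to 653 to 1010, 801 to 929 and 736 to 880 CPM. In Grhl2KO_Myc 3 of them were lower against wildtype and 3 against Myc, and 0 were higher. At an unadjusted p under 0.05 by edgeR, 4 were lower and 4 higher against wildtype (22% of all genes, either direction). Against Myc 4 were lower and 1 higher at that level (13.3% of all genes). The median log2 fold change of the 10 was -0.07 against wildtype and -0.09 against Myc, so the list did not move in a single direction. The 6 red blood cell genes had 0 called and their highest score, 0.50, in wildtype 4. The 8 neutrophil markers summed to 25.3 to 51.1, 21.9 to 40.7 and 28.2 to 34.7 CPM, with 0 called in any comparison. Their score was highest, at 0.88, in wildtype 4, the library high in Nr4a1 and Ier2, and 0.08 in Grhl2KO_Myc 2. The 10 macrophage and dendritic cell markers summed to 120 to 147, 114 to 143 and 121 to 167 CPM, with 0 called and the highest score, 0.32, in Grhl2KO_Myc 2. The 8 fibroblast markers had 0 called and their highest score, 0.34, in the same library. The 12 endothelial markers summed to 1141 to 1285, 1056 to 1132 and 1047 to 1112 CPM, with 3 lower in Grhl2KO_Myc than in wildtype. Here the sums of both Myc and Grhl2KO_Myc lay below those of wildtype. The 12 genes of injured tubules, among them Havcr1 and Lcn2, summed to 926 to 1307, 940 to 1414 and 794 to 1222 CPM, with 1 higher and 1 lower in Grhl2KO_Myc against wildtype and 0 called otherwise. Their score was 0.19 in Grhl2KO_Myc 2 and -0.11 in wildtype 4. The smooth muscle, adipocyte and adrenal lists had 0 called in any comparison. Of 7 lymphocyte markers tested 1 was lower in Grhl2KO_Myc against wildtype.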

How the data were processed

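The values are raw counts for each gene in a single table that the authors deposited, beside its exon width. They were made from polyadenylated RNA with an unstranded TruSeq kit, per the labels' protocols. Reads were aligned with HISAT2 to mm10, per the submitters' processing notes; the sources used here name neither its version nor the counting program. The members and lists were chosen with earlier results of these data known. Counts were tested with edgeR 4.0.16 in R 4.3.3 (quasi-likelihood F test, TMM scaling, default expression filter), with all 12 libraries in 1 fit, a coefficient per group and Benjamini-Hochberg adjustment over 23742 genes. The test was first run on simulated data. Scores and correlations use log2 CPM with a prior count of 2. Tried as alternatives were scaling by RLE or upper quartile, no filter or 1 CPM in 3 libraries, DESeq2 1.42.0, limma-voom (limma 3.58.1), only the groups compared, a replicate block, a sex term from Ddx3y at 10 CPM, a proximal tubule covariate, and left-out libraries. Named besides the members were up to 4 called genes per list with the smallest adjusted p, the genes most like the members, Grhl2 and Myc, and, for their kinship or after their values were seen, relatives of the members, Socs3, Hspa1a, Hspa1b and genes overlapping a member. Of the heat-shock list all 6 called genes were named. Coordinates come from GENCODE M21, in which 90.6% of the symbols were found. Each library was counted once. The chi-square between the most similar replicates was 13.4 per degree of freedom, more than repeat sequencing of a library would give. It cannot show that the libraries come from separate kidneys or mice.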

Additional observations from a re-analysis of the deposited data

Results flagged for a closer look

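Some libraries stood far from the rest of their group. The gap from the highest or lowest library to its nearest neighbour was divided by the range of the group and set against Dixon's 95% critical value, which chance passes in about 1 in 20 groups. Among the members 3 of 20 groups of 4 or 5 libraries passed. These groups are the same libraries read for correlated genes, and Junb and Atf3 passed in the same library. They are not independent trials, so the 3 cannot be set against 1 in 20. The other genes given here include Egr2 and Socs3, which were named after their values were seen, so no count is set against chance for them. Junb was at 36.6 CPM in Grhl2KO_Myc 2, with the next library of the group at 16.7 CPM. Atf3 was at 7.08 CPM in the same library, with the next at 3.16 CPM. Socs3 was at 52.0 CPM there too, with the next at 12.5 CPM. In wildtype 4, Nr4a1 was at 18.9 CPM with the next wildtype library at 12.4 CPM, and Jund was at 264 CPM with the next at 173 CPM. Egr2 was lowest in wildtype 4, at 0.694 CPM, where the other wildtype libraries were at 1.07 to 1.19 CPM. Egr3, a low relative of Egr1, was at 0.739 CPM in wildtype 5 with the next at 0.348 CPM. Dusp2 was lowest in wildtype 3, at 3.09 CPM, where the others were at 4.32 to 4.82 CPM.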

How the results depend on the processing

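Between Myc and wildtype 0 members were called under every alternative run. Between Grhl2KO_Myc and wildtype 1 member was called with DESeq2 (11.6% of all genes). There were 2 without the 3 libraries low in proximal tubule transcripts (9.48% of all genes). With single libraries left out 0 to 1 were called, the 1 without Grhl2KO_Myc 4 (3.18% of all genes). Between Grhl2KO_Myc and Myc 1 was called without those 3 libraries (1.33% of all genes) and 0 otherwise. For the members, 184 of 189 values for Myc against wildtype, 189 of 199 for Grhl2KO_Myc against wildtype and 164 of 179 for Grhl2KO_Myc against Myc kept their direction and side of the threshold. The cause of the changes was not tested.

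Directions turned for 8 of the 10 members in at least 1 comparison. Between Grhl2KO_Myc and Myc, Dusp1 was -0.011 with limma-voom and -0.068 with a covariate for the proximal tubule score, Ier2 was -0.0013 with that covariate, and Klf4 was 0.0062 with a sex term and 0.17 without the 3 libraries. Between Grhl2KO_Myc and wildtype, Egr1 was -0.023 and Ier2 -0.046 with the covariate, and Klf4 0.047 without the 3 libraries. Between Myc and wildtype, Ier2 was 0.029 and Nr4a1 0.035 without the 3 libraries. With single libraries left out, Grhl2KO_Myc against Myc ran from -0.11 to 0.16 for Dusp1, -0.27 to 0.35 for Junb and -0.16 to 0.047 for Klf4. Grhl2KO_Myc against wildtype ran from -0.024 to 0.26 for Egr1, -0.076 to 0.53 for Fosb and -0.063 to 0.55 for Junb. Myc against wildtype ran from -0.16 to 0.030 for Ier2, -0.21 to 0.014 for Jun and -0.23 to 0.036 for Nr4a1.

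The replicate numbers were not taken as pairs in the main fit. Deviations of same-numbered libraries correlated at -0.11 to 0.23 between Grhl2KO_Myc and wildtype and at -0.05 to 0.10 between Myc and wildtype. Between Grhl2KO_Myc and Myc they correlated at -0.07 to 0.05. In that order, 1 of 4, 2 of 3 and 1 of 3 libraries correlated best with their own number. So few correlations cannot exclude a pairing. With the replicate block 0 members were called in each comparison, Fos was 0.65 over wildtype (adjusted p = 0.26), and 993, 0 and 88 of all genes were called. The count of all genes between Grhl2KO_Myc and wildtype, 1584, ran from 750 without Grhl2KO_Myc 4 to 3778 without wildtype 4. Small groups and the low counts of Fosb limit what could be detected.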
